A study of Mus musculus with 6 samples.

Results

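The 37 genes of the mouse mitochondrial genome were compared between early 2-cell embryos exposed to ethylparaben and untreated controls. Members were taken as every row of the gene tables whose symbol begins with mt-, and these were 37 of 55549 rows: 13 protein genes, 2 ribosomal RNA (rRNA) genes and 22 transfer RNA (tRNA) genes. The control group held 3 libraries of untreated early 2-cell mouse embryos. The EtP group held 3 libraries of embryos at the same nominal stage, kept from 4 h after fertilization in medium with 40 µM ethylparaben, a preservative, and most of the exposed embryos stopped developing at that stage according to the series description. RNA was copied from an oligo-dT primer by Smart-seq2, a full-length amplification for small inputs, and sequenced in read pairs. Nothing in the labels tells the mouse strain, the hour of collection, the number of embryos in a library or whether replicates stem from separate collections, so p-values measure only the spread between these libraries.

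The mitochondrial genome is a small circle that is transcribed in long, many-gene RNAs from both of its strands. The heavy-strand transcript carries the rRNAs, most tRNAs and all protein genes but mt-Nd6, and enzymes cut it mostly at the tRNAs that stand between the other genes. The protein genes encode core subunits of respiratory complexes I, III and IV and of the ATP synthase, complex V, which the nucleus completes with many more subunits. The embryo inherits its mitochondria from the egg, and mitochondrial DNA is not replicated on a large scale before implantation.

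Positions below are those of the GENCODE M21 annotation of GRCm38, the assembly also called mm10, on the mitochondrial chromosome, and sequences are the annotated transcripts. Of the protein genes 12 lay on the plus strand of the annotation and 1, mt-Nd6, on the minus strand. The rRNAs were both on the plus strand, and the tRNAs were 14 on the plus and 8 on the minus strand. Neighbouring genes shared bases at 9 places, of which the longest was the 43 bases shared by mt-Atp8 and mt-Atp6, subunits of the ATP synthase that are translated from a common mRNA. That stretch is shown because a fragment inside it belongs to either gene; capitals mark the shared bases (chrM:7907-7989, plus strand):

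mt-Atp8 and mt-Atp6: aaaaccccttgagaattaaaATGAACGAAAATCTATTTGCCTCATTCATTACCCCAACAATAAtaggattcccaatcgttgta

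A larger ambiguity came from the nuclear genome, which holds old insertions of mitochondrial DNA. Alignment of the annotated transcripts (at least 100 aligned bases at 95% identity) found 11 nuclear genes near-identical to a member. Of these 7 lay side by side on chromosome 1 (chr1:24611535-24616197, minus strand) and matched mt-Co1, mt-Co2, mt-Atp6, mt-Co3, mt-Nd3, mt-Nd4l and mt-Nd4, 3 lay on chromosome 2 and 1 on chromosome 13. The copy of mt-Nd4l, Gm10222, was identical to it over its whole 294 bases (chrM:9877-10170, plus strand), shown here because no read inside it can tell the genes apart:

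mt-Nd4l and Gm10222: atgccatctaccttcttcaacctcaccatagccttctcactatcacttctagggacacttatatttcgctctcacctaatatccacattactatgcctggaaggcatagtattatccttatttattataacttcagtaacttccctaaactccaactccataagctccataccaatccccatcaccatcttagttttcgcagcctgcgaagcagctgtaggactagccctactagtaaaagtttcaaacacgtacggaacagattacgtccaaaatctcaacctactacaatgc

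The copy of mt-Nd3, Gm28438, differed from it by 1 base in 345 aligned bases, the substitution T3C counted from 1 at the first base of the gene (mt-Nd3 window chrM:9459-9481, plus strand). The base that differs is in capitals:

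mt-Nd3: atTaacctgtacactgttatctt
Gm28438: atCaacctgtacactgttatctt

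The deposited expected counts are estimates that divide ambiguous reads, and the division showed in them. For mt-Nd4l, mt-Nd3, mt-Co3 and mt-Nd4 the member and its chromosome 1 copy summed to a whole number (within 0.02) in 6 of 6 libraries, although the member alone was whole in 1, 1, 1 and 3 libraries. For mt-Co1 and mt-Co2 the sum with the chromosome 1 and 2 copies was whole in 6 of 6. For mt-Atp6 and its copy Gm10925 it was whole in 0 of 6 libraries, and in 6 of 6 once mt-Atp8 was added. Values below are therefore given as deposited and, where they differ, with the copies added to the member.

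Gm10222 held between 83.06% and 100% of the counts of the mt-Nd4l pair, and in EtP replicate 3 mt-Nd4l itself was at 0. Gm28437 held 50.58% to 68.31% of the mt-Co3 pair, Gm28661 34.68% to 62.97% of the mt-Co2 pair, and Gm29216 13.18% to 23.5% of the mt-Co1 pair. Gm10925 held 4.71% to 13.51% of the mt-Atp6 pair and Gm28438 0% to 22.48% of the mt-Nd3 pair. The split thus moved between libraries of 1 group by more than 10 percentage points for mt-Co2, mt-Co3, mt-Nd3 and mt-Nd4l, so the deposited values of these genes carry that additional spread. Copies on chromosomes 2 and 13 and Gm28439, the copy of mt-Nd4, reached at most 1.3 counts per 1000000 in any library.

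**Figure D1:**
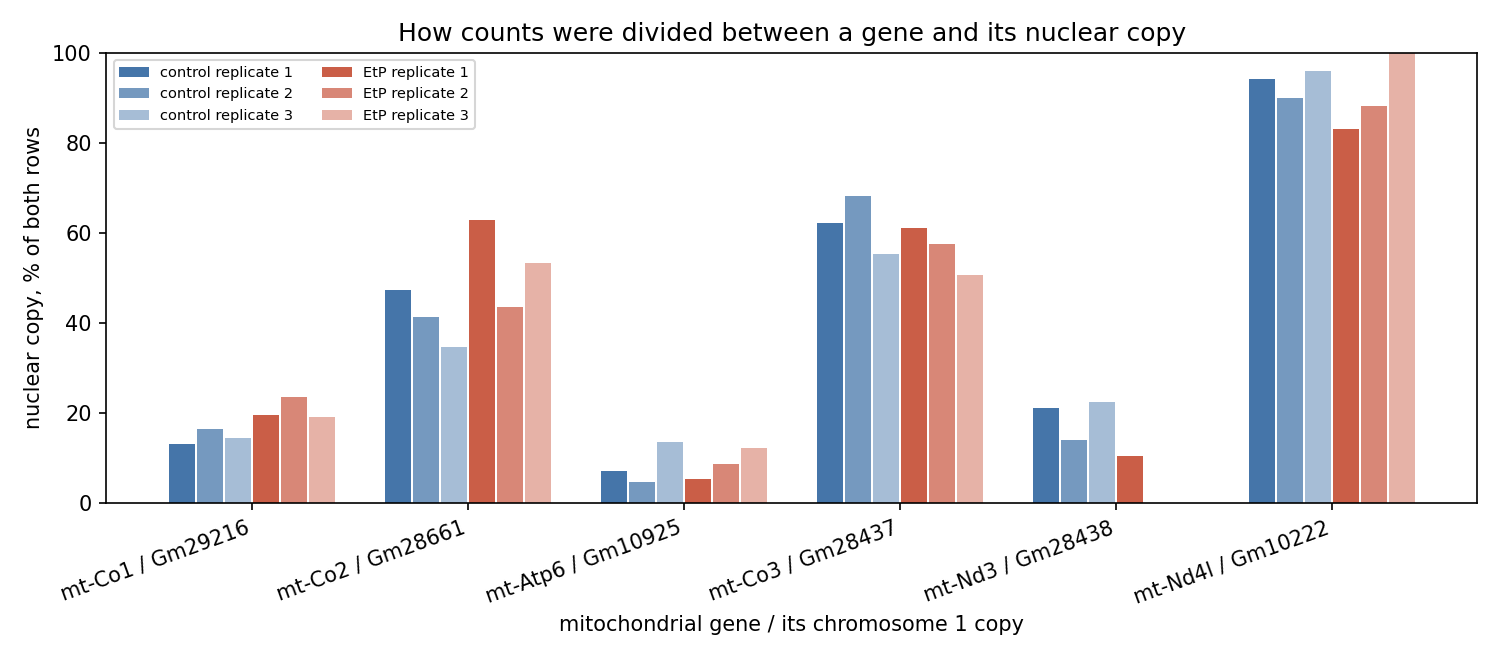
Share of a gene's and its chromosome 1 copy's combined expected counts that was assigned to the copy (y axis, percent), for 6 pairs on the x axis and the 3 control (blue) and 3 EtP (red) libraries, 1 bar a library. The copy took 83.06% to 100% for mt-Nd4l, and 0% to 22.48% for mt-Nd3, where EtP replicates 2 and 3 are at 0%.

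Libraries held 11173295 to 14737152 expected counts. The scaling factors of the trimmed mean of M-values (TMM) lay between 1.198 and 1.385 for the control libraries and between 0.738 and 0.833 for the EtP libraries, so that scaling decides where 0 lies: the median log2 difference over all 14373 tested genes was -0.19 with TMM and -0.92 with library size alone. Counts per 1000000 counts of a library (CPM) below use TMM, and each direction that library size alone turns is named. The 12 oocyte and early-embryo markers were present in every library, at a summed level of 8274 to 13215 CPM in control and 26851 to 30053 CPM in EtP. Of 7 markers of the 2-cell embryo 5 were in the tables, summing to 189 to 238 CPM in control and 8.18 to 10.2 CPM in EtP. The groups thus also differed in their stage markers, and the part of that difference in the results below was not tested. Markers of cumulus and granulosa cells summed to 19.1 to 44.0 CPM in control and 17.7 to 19.6 CPM in EtP, with Ptx3 and Amh at 0 in every library. Sperm markers summed to 5.84 to 12.9 and 2.9 to 3.43 CPM, with Tnp1 and Smcp at 0. In such bulk libraries fewer cells of a type and less RNA per cell cannot be told apart, and the same holds for fewer mitochondria and less RNA in each.

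Mitochondrial protein genes were lower in the EtP embryos or did not pass the test, and the decrease was unequal. Of the 13, all tested, 5 fell (mt-Nd2, mt-Nd3, mt-Nd4, mt-Nd5 and mt-Cytb) and 0 rose (edgeR's quasi-likelihood test, adjusted p below 0.05). Among all genes tested 18.1% were lower and 12.5% higher by the same rule. The median log2 difference of the 13 was -0.79, beside -0.19 for all genes, and the values ran from -2.43 to 0.01. With copies added 6 of the 13 fell, mt-Nd4l joining the others (18.2% of all genes lower in that fit), and with library size alone 12 of the 13 fell (53% of all genes lower and 3.79% higher). At an unadjusted p below 0.05 in edgeR, and at an adjusted p below 0.05 in DESeq2 and limma-voom, 0 of the 13 were higher.

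Complex I passes electrons from NADH to ubiquinone, and its 7 mitochondrially encoded subunits form the membrane arm that pumps protons. Of the 7, 4 fell and mt-Nd1, mt-Nd4l and mt-Nd6 did not pass. The largest difference was that of mt-Nd3, a small subunit at the hinge between the arms of the complex. It stood at 578, 360.2 and 263 CPM in control replicates 1, 2 and 3 and at 84.9, 91.2 and 46.3 CPM in EtP replicates 1, 2 and 3. The highest EtP library was below the lowest control library, and the difference of -2.43 ± 0.35 (log2, ± standard error (SE), n = 3 and 3; edgeR adjusted p = 0.00062) corresponds to a mean 5.4-fold lower in EtP. With Gm28438 added, at 733, 419 and 339 against 94.7, 91.2 and 46.3 CPM, it was -2.68 ± 0.36 (edgeR adjusted p = 0.00043).

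mt-Nd5, a proton-pumping subunit at the far end of the membrane arm, stood at 1555, 1357 and 1574 CPM in control and at 565, 471 and 332 CPM in EtP. The groups did not overlap, and control replicate 1, the highest control library for 11 of the 13 protein genes, did not stand above the others here. Its difference was -1.71 ± 0.24 (edgeR adjusted p = 0.000536). mt-Nd4, another proton-pumping subunit, stood at 1396, 844 and 915 CPM in control and 414, 474 and 277 CPM in EtP, a difference of -1.44 ± 0.28 without overlap (edgeR adjusted p = 0.00326).

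mt-Nd2, the third of the related pumping subunits, stood at 1061, 674 and 602 CPM in control and 431, 505 and 252 CPM in EtP. Its difference of -0.98 ± 0.30 passed by less (edgeR adjusted p = 0.0323), and its groups did not overlap. It was no longer called when control replicate 1 or 2, or EtP replicate 1 or 3, was left out, with an edgeR adjusted p of up to 0.138 and a difference as small as -0.59, nor with the scaling factors of DESeq2 in edgeR (-0.89, adjusted p = 0.057).

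mt-Nd4l was the member that depended most on the nuclear copies. As deposited it stood at 42.2, 50.7 and 15.5 CPM in control and 25.6, 14.3 and 0 CPM in EtP, with overlapping groups and a difference of -1.45 ± 1.08 (edgeR adjusted p = 0.342). With Gm10222 added, the same gene sequence stood at 733, 510.2 and 397 CPM in control and 151, 121 and 74.3 CPM in EtP. The groups then did not overlap, and the difference was -2.24 ± 0.32 (edgeR adjusted p = 0.000563).

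mt-Nd1, the subunit that lines the ubiquinone pocket, stood at 5841, 2943 and 2727 CPM in control and 4646, 3882 and 3057 CPM in EtP. The EtP libraries lay within the control range, and the difference was 0.01 ± 0.31 (edgeR adjusted p = 0.987). With library size alone it was -0.71 ± 0.26 (edgeR adjusted p = 0.0367). The only protein gene read from the light-strand transcript, mt-Nd6, stood at 94.0, 74.8 and 90.3 CPM in control and 59.8, 71.7 and 53.9 CPM in EtP. The lowest control library was just above the highest EtP library, and the difference of -0.48 ± 0.22 did not pass (edgeR adjusted p = 0.113). With library size alone mt-Nd6 was called lower, at -1.22 ± 0.23 (edgeR adjusted p = 0.00129). It shares 14 bases with mt-Nd5 on the opposite strand, and the protocol names no step that keeps strand, so reads there cannot be told apart.

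Complex III is represented by mt-Cytb, cytochrome b, which carries electrons across the membrane between its ubiquinone sites. It stood at 6516, 3545 and 3715 CPM in control and at 1601, 1449.6 and 939 CPM in EtP. Every EtP library was below every control library, with a difference of -1.79 ± 0.30 (edgeR adjusted p = 0.00162), and none of the 11 nuclear copies matched this gene.

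Complex IV, cytochrome c oxidase, has its catalytic core in mt-Co1, mt-Co2 and mt-Co3, and none of the 3 passed with TMM. mt-Co1, which binds the heme and copper centres where oxygen is reduced, stood at 3356, 1703 and 1603 CPM in control and 2534, 2186 and 1768 CPM in EtP. The groups overlapped, and the difference of -0.04 ± 0.30 (edgeR adjusted p = 0.937) took the other sign, 0.07 ± 0.29, with copies added. mt-Co2, which takes electrons from cytochrome c, stood at 1560.2, 960.4 and 841 CPM in control and 563, 887 and 491 CPM in EtP, a difference of -0.79 ± 0.30 (edgeR adjusted p = 0.0675). With copies added it was -0.51 ± 0.31 (edgeR adjusted p = 0.241). mt-Co3, at 1342, 651 and 604 CPM in control and 773, 778 and 513 CPM in EtP, differed by -0.33 ± 0.32 (edgeR adjusted p = 0.462), and by -0.52 ± 0.35 with its copy. Both had overlapping groups.

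Complex V uses the proton gradient to make ATP, and neither of its mitochondrially encoded subunits passed with TMM. mt-Atp6, which forms part of the proton channel, stood at 9595, 5038 and 5216 CPM in control and 5095, 4502 and 3591 CPM in EtP. mt-Atp8, a short membrane subunit, stood at 993, 577 and 553 CPM in control and 567, 476 and 304 CPM in EtP. In both genes only EtP replicate 1 reached into the control range, and the differences were -0.59 ± 0.28 and -0.66 ± 0.30 (edgeR adjusted p = 0.137 and 0.12). With library size alone mt-Atp6 and mt-Atp8 were called lower, at -1.31 and -1.39 (edgeR adjusted p = 0.00116 and 0.00143), beside 53% of all genes.

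**Figure D2:**
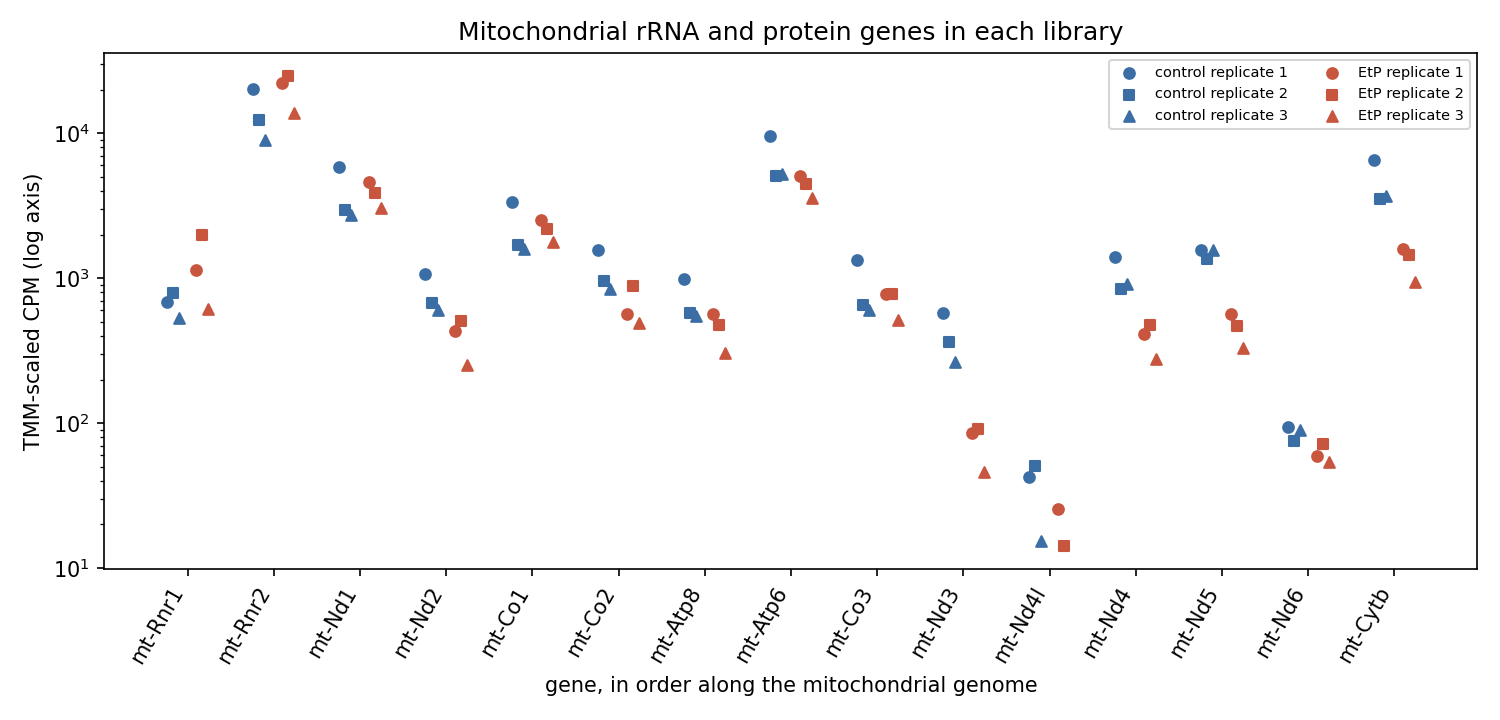
TMM-scaled CPM (y axis, log scale) of the 2 rRNA and 13 protein genes as deposited, in genome order on the x axis, with 1 point a library (control blue, EtP red; marker shape gives the replicate). The EtP points of mt-Nd3, mt-Nd4, mt-Nd5 and mt-Cytb lie below all control points, those of mt-Nd1, mt-Co1 and mt-Rnr2 overlap with control, and mt-Nd4l in EtP replicate 3, at 0, is not drawn.

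The share of a gene in the counts of all 13 protein genes does not depend on how libraries are scaled, and these shares differed in composition. mt-Nd1 made up 17.2%, 15.7% and 14.6% of the sum in the control libraries and 26.8%, 24.6% and 26.3% in the EtP libraries, a mean of 15.8 ± 1.33% (SD, n = 3) against 25.9 ± 1.15%. mt-Cytb made up 19.2%, 18.9% and 19.8% in control and 9.22%, 9.18% and 8.08% in EtP, means of 19.3 ± 0.493% and 8.83 ± 0.648%. The order of the 2 genes was thus opposite in the groups, with mt-Cytb ahead of mt-Nd1 in every control library and behind it in every EtP library.

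mt-Co1 also took a larger share in every EtP library, at 14.6 ± 0.685% against 9.17 ± 0.669% in control. mt-Nd5 had shares of 6.74 ± 1.96% and 3.03 ± 0.205%, mt-Nd4 of 4.5 ± 0.388% and 2.59 ± 0.357%, and mt-Nd3 of 1.68 ± 0.259% and 0.488 ± 0.0895% in control and EtP, each without overlap. mt-Atp6 at 27.7 ± 0.747% and 29.6 ± 1.21%, and mt-Co3 at 3.55 ± 0.37% and 4.6 ± 0.288%, were higher in every EtP library as deposited, but overlapped with copies added. mt-Nd4l overlapped as deposited, and with its copy added had 2.01 ± 0.273% in control and 0.641 ± 0.0964% in EtP without overlap. The shares of mt-Nd2, mt-Co2, mt-Atp8 and mt-Nd6 overlapped either way. Each share without overlap had p = 0.1 in the exact two-sided permutation test, the smallest that 3 against 3 libraries can give, so none could pass; the adjusted p over the 20 library measures was 0.167 as deposited and 0.182 with copies added.

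Set against mt-Nd1 in the same library, with copies added, mt-Cytb had 112, 120.5 and 136 counts per 100 counts of mt-Nd1 in control and 34.5, 37.3 and 30.7 in EtP. mt-Nd3 had 12.5, 14.2 and 12.4 in control and 2.04, 2.35 and 1.51 in EtP, and mt-Nd4l had 12.5, 17.3 and 14.5 and then 3.25, 3.12 and 2.43. mt-Co1, the next protein gene but 1 along the genome, stayed near its control value at 66.2, 69.3 and 68.7 in control and 67.7, 73.6 and 71.6 in EtP. Relative to mt-Nd1, 10 of the other protein genes were lower in every EtP library than in any control library, and mt-Co1 and mt-Nd6 overlapped. mt-Nd1 had the highest difference of the protein genes as deposited (0.01), so lower ratios to it follow in part from its choice as reference. No share of all genes was computed on this scale.

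**Figure D3:**
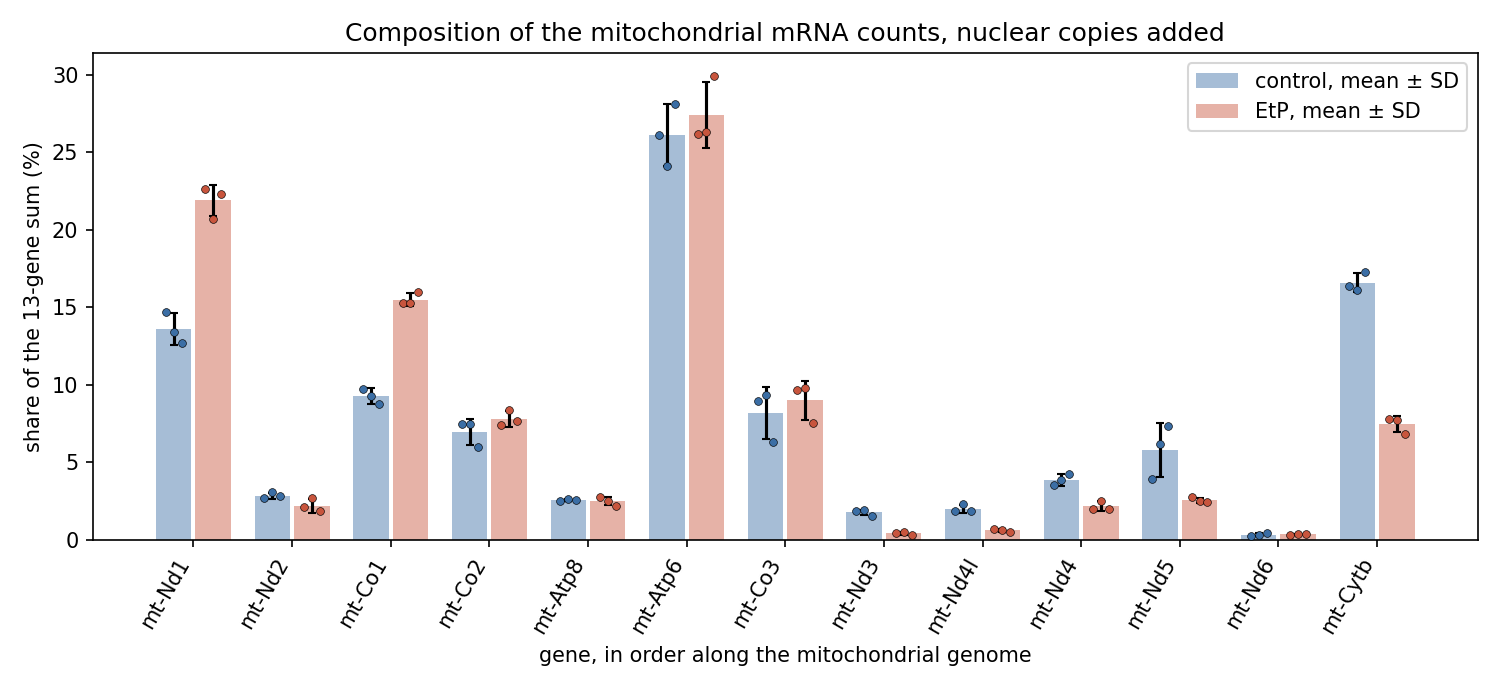
Share of each protein gene in the counts of all 13 (y axis, percent), copies added, in genome order; bars are group means (control blue, EtP red), error bars SD over 3 libraries, and points single libraries. mt-Nd1 and mt-Co1 take larger shares in EtP, and mt-Nd3, mt-Nd4l, mt-Nd4, mt-Nd5 and mt-Cytb smaller ones, while mt-Atp6 overlaps.

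Among rRNA and protein genes along the heavy-strand transcript the differences ran from higher to lower. Over the 14 rRNA and protein genes of the plus strand, ordered by position, Spearman's rho between position and log2 difference was -0.84, as deposited and with copies added. The median difference was -0.04 for the first 7 of these genes and -1.45 for the last 7 (0.01 and -1.71 with copies added). The first 7 include both rRNAs, at 0.88 and 0.54. The protein genes among them stood at 0.01, -0.98, -0.04, -0.79 and -0.66. Position and RNA class are thus mixed in this order, and their parts were not tested. The tRNAs are left out of it. Plus-strand tRNAs that were tested, from mt-Tl1 to mt-Tt, stood at -1.82, -1.33, -1.74, -2.26, -2.39 and -0.28. The order is a description across 14 genes of the same libraries, which share each transcript and are not independent. mt-Nd2, which lies between mt-Nd1 and mt-Co1, departed from the order at -0.98, and mt-Nd6, the light-strand gene between mt-Nd5 and mt-Cytb, stood at -0.48 beside -1.71 and -1.79 for its neighbours. The ratio of mt-Nd6 to the 12 heavy-strand protein genes was 0.387 ± 0.104% in control and 0.423 ± 0.0667% in EtP, with overlap (exact two-sided permutation p = 0.7, adjusted p = 0.737). It compares counts from oligo-dT priming, and how completely the primer caught mt-Nd6 was not measured.

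**Figure D4:**
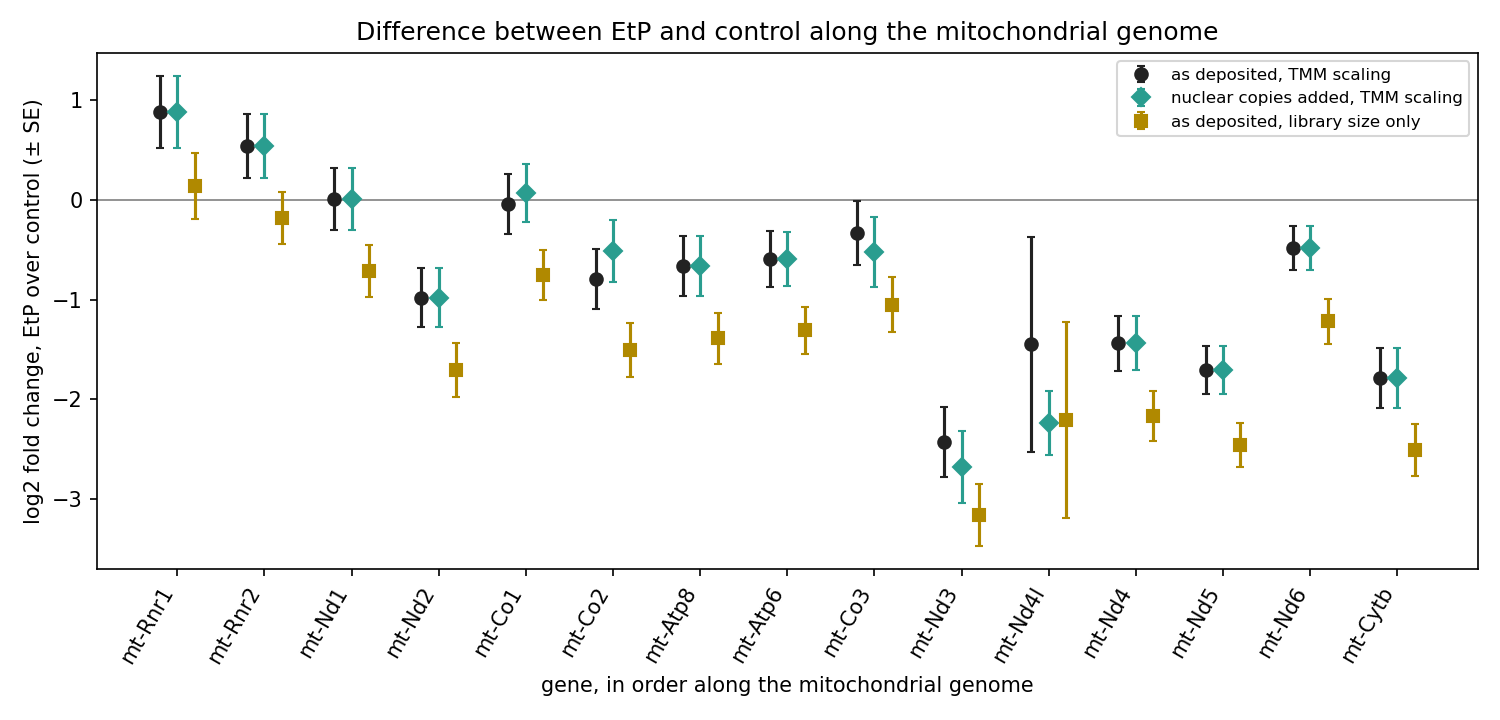
Log2 fold change of EtP over control (y axis, ± SE) of the 2 rRNA and 13 protein genes in genome order, as deposited with TMM scaling (black), with nuclear copies added (green) and with library size alone (yellow). Library size alone shifts every gene down and leaves the order along the genome; mt-Nd4l moves from -1.45 to -2.24 when its copy is added.

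Neither rRNA of the mitochondrial ribosome passed the test. mt-Rnr2, the large-subunit rRNA and the most abundant member by counts, stood at 20216, 12446 and 8937 CPM in control and 22188, 24663 and 13771 CPM in EtP. mt-Rnr1, the small-subunit rRNA, stood at 689, 795 and 535 CPM in control and 1137, 1972 and 618 CPM in EtP. In both genes the groups overlapped, and the differences were 0.54 ± 0.32 and 0.88 ± 0.36 (edgeR adjusted p = 0.226 and 0.0874). When only library size was used, mt-Rnr2 was at -0.18 ± 0.26 and mt-Rnr1 at 0.14 ± 0.33. DESeq2 called mt-Rnr1 higher (0.98, adjusted p = 0.0333), and edgeR did so without the filter on low counts (0.92, adjusted p = 0.0044). Single libraries moved both values: mt-Rnr1 was at 0.42 without EtP replicate 2 and called higher, at 1.24, without EtP replicate 3 (edgeR adjusted p = 0.0209). mt-Rnr2 was at 0.34 without control replicate 3 and called higher, at 1.01, without control replicate 1 (edgeR adjusted p = 0.0134).

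Within a library, rRNA counts were 0.616, 0.705 and 0.506 of the protein gene counts in control and 1.34, 1.69 and 1.24 in EtP, a mean ratio of 0.609 ± 0.0997 against 1.42 ± 0.235 and 2.34-fold higher in EtP. The lowest EtP library was well above the highest control library (exact two-sided permutation p = 0.1, adjusted p = 0.167). With copies added to the protein genes the ratio was 0.524 ± 0.0808 and 1.2 ± 0.195. The rRNAs took 1.83 ± 0.606% of all counts in control and 1.65 ± 0.418% in EtP, with overlap, beside 3.01 ± 0.901% and 1.15 ± 0.162% for the protein genes, without overlap. All 37 genes took 4.85 ± 1.48% and 2.8 ± 0.559%. mt-Rnr2 had 20.6 ± 7.62 counts per count of mt-Rnr1 in control and 18.1 ± 5.04 in EtP (exact two-sided permutation p = 0.7). All these counts are of RNA copied from an oligo-dT primer. How completely the primer caught each rRNA and mRNA was not measured, so the ratios describe counts in the libraries only.

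Transfer RNAs are a trace in such libraries, which were made for polyadenylated RNA and long fragments. All 22 together had 621, 460 and 311 counts in the control libraries and 266, 258 and 161 in the EtP libraries. Scaled by library size alone, that is 44.5, 31.2 and 27.8 CPM in control and 18.9, 21.7 and 11.1 CPM in EtP, without overlap. Of the 22, 9 passed the filter on low counts. Of these 4 fell and 0 rose, beside 18.1% of all genes tested lower and 12.5% higher. No tRNA was higher at an unadjusted p below 0.05 in edgeR or by DESeq2 either, with all 6 libraries. In 5 of the 9 the groups did not overlap with EtP lower, and the same held for 27.9% of all genes tested.

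The 4 that fell were mt-Tg, mt-Th, mt-Td and mt-Tl1, the tRNAs for glycine, histidine, aspartate and a leucine codon group, all on the plus strand. A difference by strand was not tested, and the protocol names no step that keeps strand. The minus-strand mt-Tp and mt-Tc also had fewer counts in EtP. Summed over a group, they had 67 and 39 in control and 15 and 8 in EtP. mt-Tg, which lies directly before mt-Nd3, had 49, 36 and 19 counts in control and 4, 5 and 4 in EtP, a difference of -2.26 ± 0.51 (edgeR adjusted p = 0.00754). mt-Th, which follows mt-Nd4, had 38, 18 and 14 counts in control and 3, 3 and 2 in EtP (-2.39 ± 0.60, edgeR adjusted p = 0.0124), and was not called without EtP replicate 1 or EtP replicate 3 (adjusted p up to 0.0707). mt-Td at -1.74 ± 0.55 and mt-Tl1 at -1.82 ± 0.62 (edgeR adjusted p = 0.034 and 0.0459) were not called by DESeq2 (adjusted p = 0.0994 and 0.124). With single libraries left out they kept their call in 1 of 6 and 1 of 5 fits (edgeR adjusted p of up to 0.176 and 0.219).

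The minus-strand genes mt-Tq and mt-Ts1, for glutamine and a serine codon group, had the highest tRNA counts and did not pass; whether they differed from the other tRNAs was not tested. mt-Tq had 142, 102 and 65 counts in control and 99, 109 and 67 in EtP, and mt-Ts1 had 118, 77 and 64 and then 78, 81 and 33. Their differences were 0.57 and 0.32 with TMM (edgeR adjusted p = 0.256 and 0.606) and -0.15 and -0.42 with library size alone. Without control replicate 1 mt-Tq was called higher (0.99, edgeR adjusted p = 0.0331). Together they held 41.9%, 38.9% and 41.5% of tRNA counts in control and 66.5%, 73.6% and 62.1% in EtP, without overlap. The other 20 tRNAs together had 361, 281 and 182 counts in control and 89, 68 and 61 in EtP, a grouping made after the counts were seen and given without a test. mt-Tq lies opposite the end of mt-Ti and mt-Ts1 opposite the end of mt-Co1, with 3 shared bases each. Their sequences are shown, on their own strand, because each had more counts than any of the other 20 tRNAs in every library (mt-Tq chrM:3772-3842 and mt-Ts1 chrM:6870-6938, minus strand):

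mt-Tq: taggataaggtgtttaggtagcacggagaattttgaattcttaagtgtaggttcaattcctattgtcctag
mt-Ts1: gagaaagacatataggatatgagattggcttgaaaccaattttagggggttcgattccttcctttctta

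The other serine tRNA, mt-Ts2, was the only member at 0 in every library, and mt-Tr, for arginine, had 2, 2 and 1 counts in control and 0 in each EtP library. With mt-Tr, 12 tRNAs had counts but too few to be tested; the others were mt-Tf, mt-Tv, mt-Ti, mt-Tw, mt-Ta, mt-Tn, mt-Tc, mt-Ty, mt-Tk, mt-Tl2 and mt-Te. Summed over the libraries of a group, these 12 had 5 to 46 counts each in control and 0 to 16 in EtP. mt-Te, for glutamate, had 46 and 16, and mt-Tv, for valine, 18 and 11. mt-Tt, for threonine, which follows mt-Cytb, had 36, 41 and 30 counts in control and 19, 17 and 18 in EtP, a difference of -0.28 ± 0.35 beside -1.79 for mt-Cytb. mt-Tm at -1.33 and mt-Tp at -1.40 did not pass (edgeR adjusted p = 0.136 and 0.0845).

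**Figure D5:**
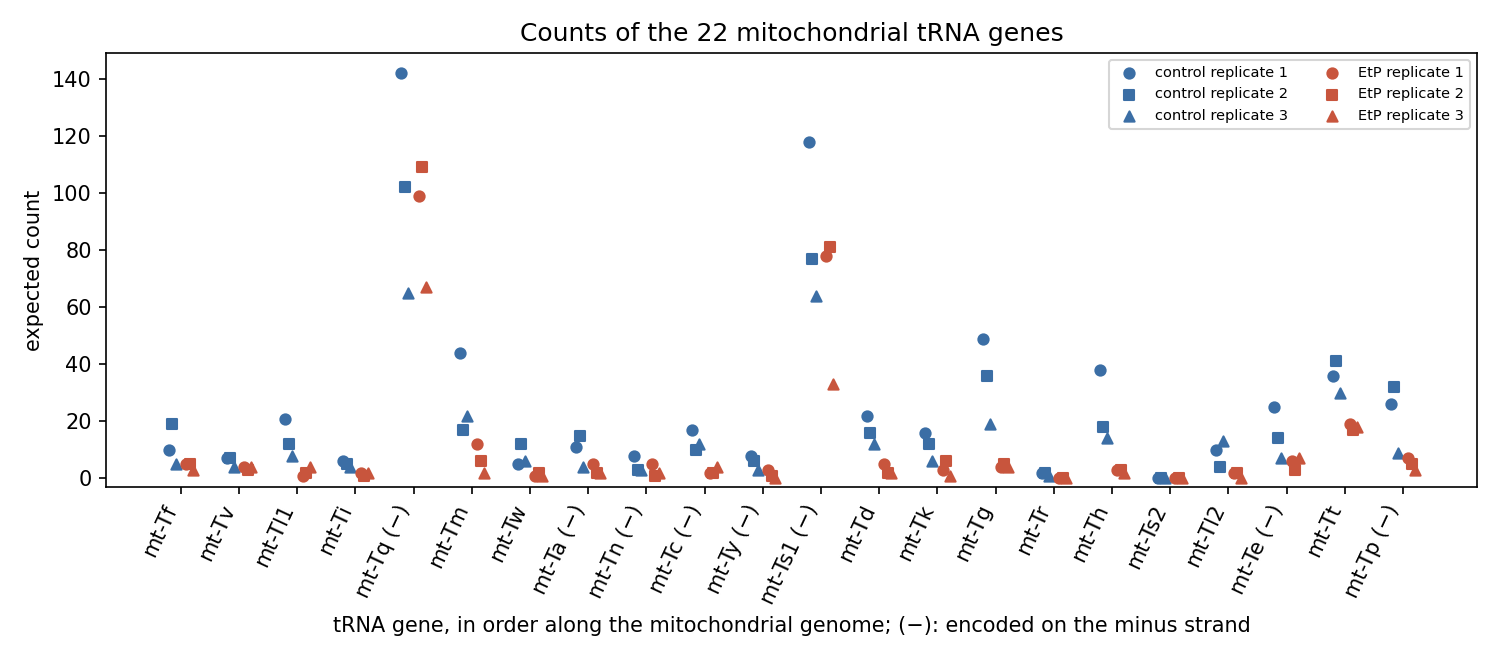
Expected counts (y axis) of the 22 tRNA genes in genome order (x axis), 1 point a library; control blue, EtP red, marker shape the replicate, and (−) the minus strand. mt-Tq and mt-Ts1 reach 142 and 118 counts and overlap between groups, while mt-Tg and mt-Th have at most 5 counts in EtP.

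Per length, in transcripts per 1000000 (TPM, which are scaled to each library's total and not by TMM), mt-Atp6 was the highest rRNA or protein gene in every control library and mt-Rnr2 in every EtP library. This order is of RNA caught by the oligo-dT primer, and capture may differ between genes. With the copies that cover a member whole added, the control order began with mt-Atp6 (20819.8 ± 4642 TPM), mt-Rnr2 (14999.5 ± 3502) and mt-Atp8 (13491 ± 2186). mt-Nd1 (7278 ± 1946) and mt-Cytb (7196 ± 1421) came next, followed by mt-Co2, mt-Co3 and mt-Nd4l at 5546 to 5167 TPM. Neighbours within each of these last groups differed by less than their SD. mt-Nd3 followed at 3544 ± 756 and mt-Co1 at 2467 ± 643 TPM, then mt-Nd5, mt-Nd2, mt-Nd4 and mt-Rnr1 between 1457 and 1329 TPM, again within their spread, and mt-Nd6 was last at 365 ± 78.8 TPM.

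In EtP the order began with mt-Rnr2 (14196 ± 2938 TPM), mt-Atp6 (8976 ± 355), mt-Atp8 (5509 ± 612) and mt-Nd1 (4789 ± 575). mt-Cytb went from rank 4 or 5 of the 15 in control to rank 8 or 9 at 1339 ± 233 TPM, and mt-Nd3 from rank 9 to rank 12 at 355 ± 81.5 TPM. mt-Co1 went from rank 10 to rank 7 or 8, at 1571 ± 152 TPM, and mt-Rnr1 from ranks 11 to 14 to ranks 7 to 9. mt-Nd6 remained last at 164 ± 16.5 TPM. The deposited effective length is shorter than the length, by 119.86 to 148.29 bases in the longest members depending on the library and by fewer bases in short ones, so TPM of the short tRNAs is not comparable with that of longer genes: 142 counts of mt-Tq in control replicate 1 were listed as 3089 TPM.

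Libraries also differed within groups. Control replicate 1 was the highest control library for 11 of the 13 protein genes, and EtP replicate 3 the lowest EtP library for 13 of 13. The median coefficient of variation over the 13 was 36.3% in control and 26% in EtP, lowest for mt-Nd5 in control at 8.04%. Of the 24 members tested 9 fell, beside 18.1% of all genes. In these fits 5 of 30 fell without EtP replicate 1 and 5 of 30 without EtP replicate 3, beside 10.7% and 11.1% of all genes. No tested member rose, with 1 at an unadjusted p below 0.05 in edgeR (mt-Rnr1), beside 12.5% of all genes higher. However, 2 rose without control replicate 1 (mt-Rnr2 and mt-Tq) and 1 without EtP replicate 3 (mt-Rnr1), where 17.6% and 9.42% of all genes were higher. mt-Nd3, mt-Nd4, mt-Nd5, mt-Cytb and mt-Tg kept their call in 6 of 6 fits that left out a library, with edgeR adjusted p of at most 0.0046, 0.0219, 0.00611, 0.0129 and 0.0429.

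Nuclear genes that keep and express the mitochondrial genome were examined in 4 lists. Together 81 of the 94 listed genes were tested, of which 10 rose (12.3%) and 7 fell (8.64%), against 12.5% and 18.1% of all genes, with a median log2 difference of 0.18. These counts rest on the scaling: with library size alone 2 were higher (2.47%) and 32 lower (39.5%), against 3.79% and 53% of all genes. Leaving out single libraries gave 6 to 21 higher and 1 to 6 lower, the 21 without control replicate 1 and the 1 without EtP replicate 2. There were 6 higher when control replicate 2, EtP replicate 1 or EtP replicate 3 was left out, and the lower ones numbered 4 without control replicate 1, 3 without EtP replicate 1 and 2 without control replicate 2 or EtP replicate 3. The whole table moved too. The 21 were 24.7% of the listed genes tested, beside 17.6% of all genes. The 6 were 7.41%, 7.06% and 7.06%, beside 8.73%, 7.05% and 9.42% of all genes. Lower calls were 1.18% to 7.41% of the listed genes and 10.7% to 19.3% of all genes. Of the 17 genes called, Rrm2b, Gabpa, Rpusd4, Trnt1 and Tufm kept their call whichever library was left out, and the other 12 lost it in 1 to 5 of the 6 fits, with an edgeR adjusted p of up to 0.164.

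Among mtDNA replication and maintenance genes 2 rose and 1 fell of 17 tested. Rrm2b, the p53-inducible ribonucleotide reductase subunit that supplies DNA precursors, rose from 366 ± 30.5 to 691 ± 47.9 CPM (0.92 ± 0.19, edgeR adjusted p = 0.00542). Lig3, the mitochondrial DNA ligase, rose from 48.8 ± 16.6 to 95.6 ± 5.92 CPM (0.97 ± 0.27, edgeR adjusted p = 0.0204) and Dguok, a mitochondrial deoxyguanosine kinase, fell from 45.8 ± 11.8 to 23.1 ± 1.35 CPM (-0.99 ± 0.25, edgeR adjusted p = 0.0126). Polg2, the accessory subunit of the mitochondrial DNA polymerase, was at 0.93 ± 0.35 and did not pass (edgeR adjusted p = 0.0654). Rrm2b and Lig3 were at 0.18 and 0.22 with library size alone and were not called.

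Of 14 transcription genes tested 2 rose and 1 fell. Mterf4, which guides a methyltransferase to the mitochondrial rRNA, rose from 51.0 ± 17.7 to 105 ± 11.2 CPM (1.04 ± 0.27, edgeR adjusted p = 0.0144). Tfam, which packages and helps transcribe mitochondrial DNA, stood at 7.02 ± 2.47 and 11.1 ± 1.22 CPM and did not pass (0.67 ± 0.30, edgeR adjusted p = 0.12). Tfb1m, which methylates the small-subunit rRNA, and Mterf1b were at 0.64 and 0.59 and did not pass either (edgeR adjusted p = 0.144 and 0.213). These 3 genes took the other sign, at -0.08, -0.07 and -0.12, with library size alone. Gabpa and Ppargc1b, nuclear regulators of mitochondrial genes, are named because they were the list's other calls, outside the naming rule and after their values were seen. Gabpa fell from 6.49 ± 0.527 to 0.216 ± 0.245 CPM (-4.82 ± 0.57, edgeR adjusted p = 0.000193), and Ppargc1b rose from 2.43 ± 0.67 to 5.71 ± 0.696 CPM (1.24 ± 0.32, edgeR adjusted p = 0.0147). Mterf4 and Ppargc1b, at 0.32 and 0.52 with library size alone, were then not called.

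RNA processing and stability genes split evenly, with 4 higher and 4 lower of 38 tested. Trnt1, which adds the CCA end to tRNAs, rose from 115 ± 26.6 to 348 ± 49.4 CPM (1.60 ± 0.23, edgeR adjusted p = 0.000716). Rpusd4, a pseudouridine synthase acting on the large-subunit rRNA, rose from 5.53 ± 1.39 to 19.6 ± 2.35 CPM (1.82 ± 0.27, edgeR adjusted p = 0.000761), and Nsun4, the rRNA methyltransferase that works with Mterf4, from 494 ± 36.9 to 851 ± 71.7 CPM (0.79 ± 0.19, edgeR adjusted p = 0.0117). Nsun3, which methylates the mitochondrial methionine tRNA, fell from 39.2 ± 7.67 to 20.6 ± 4.02 CPM (-0.93 ± 0.25, edgeR adjusted p = 0.0176). The other calls, outside the naming rule and named after their values were seen, were Fastkd2 (higher) and Prorp, Hsd17b10 and Pde12 (lower). Prorp and Hsd17b10 are parts of the mitochondrial RNase P, which cuts the long transcripts at the start of each tRNA. They stood at 23.7 ± 7.05 and 12.9 ± 1.92 CPM (-0.88 ± 0.27, edgeR adjusted p = 0.0328) and at 2.94 ± 1.79 and 0.777 ± 0.282 CPM (-1.92 ± 0.53, edgeR adjusted p = 0.0198). Prorp lost its call with the scaling factors of DESeq2 in edgeR (adjusted p = 0.0575) and in 5 of 6 fits that left out a library (edgeR adjusted p up to 0.144). Hsd17b10 lost its call in 3 of those 6 fits (edgeR adjusted p up to 0.0871). The enzyme as a whole was not tested. Nsun4 was at 0.05 and Fastkd2 at 0.08 with library size alone, and neither was called.

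Of 12 translation factors tested 2 rose and 1 fell. Tufm, the mitochondrial elongation factor that brings tRNAs to the ribosome, rose from 4.55 ± 0.359 to 11.2 ± 1.15 CPM (1.30 ± 0.25, edgeR adjusted p = 0.0036), and was at 0.56 and not called with library size alone. Mrrf, the ribosome recycling factor, fell from 59.2 ± 18.6 to 33.9 ± 1.92 CPM (-0.80 ± 0.26, edgeR adjusted p = 0.0355). It lost its call with the scaling factors of DESeq2 in edgeR (adjusted p = 0.0627). Taco1, a translational activator of mt-Co1 and named after its values were seen, rose from 0.664 ± 0.323 to 2.21 ± 0.168 CPM (1.72 ± 0.44, edgeR adjusted p = 0.0144). It was at 1.02 and not called with library size alone (edgeR adjusted p = 0.0646). The initiation factor Mtif2 and the release factor Mtrf1 were at 0.66 and 0.39 and did not pass (edgeR adjusted p = 0.103 and 0.34), and they were at -0.05 and -0.32 with library size alone.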

How the data were processed

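Sequencing reads of 6 embryo RNA libraries were trimmed with cutadapt 1.16 and aligned with STAR to mm10, per the submitters' processing notes; for the STAR version, annotation and counting program the sources used here give nothing. The authors deposited per gene an expected count, an estimated number of fragments that need not be whole (10.6% to 16.0% of rows were not whole, tolerance 0.005), and a TPM value, normalized by the authors for effective length and library total. FPKM was not used. Expected counts were rounded and tested over all genes with edgeR 4.0.16 (R 4.3.3): filterByExpr defaults, TMM scaling, robust quasi-likelihood test, Benjamini-Hochberg adjustment, threshold 0.05, no covariates. CPM are TMM-scaled. DESeq2 1.42.0, limma 3.58.1 on counts (voom) and on log2(TPM + 1) or log2(TPM + 0.1), with a minimum of 1 TPM, other scalings and filters, left-out libraries, a replicate block and sums with nuclear copies were alternatives. Library measures (20 in all) were compared by exact two-sided permutation. Nuclear copies were found with blastn 2.17.0 on GENCODE M21 transcripts. The edgeR script was tested on simulated data. Named by rule were all members with a count, copies with a mean of at least 5 CPM (Gm28439, below it, is named only to complete the account of the copies), and of each nuclear list the 4 genes with the smallest p at that level. The members and lists were chosen with earlier results of these data known. Counts limit precision only as the libraries' depth allows: intervals were not drawn from counts because amplified reads without molecular identifiers are not independent molecules. Rows without an Ensembl identifier (214) stayed in the fit. Sums with copies under library size alone and under a replicate block were added after seeing the data.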

Additional observations from a re-analysis of the deposited data

How the results depend on the processing

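With library size alone 19 members, 12 protein genes and 32 nuclear genes were lower (53% of all genes) and 2 nuclear genes higher, and with copies also added 20 members and 13 protein genes were lower. On TPM, where scaling, filter and model all differ and 36 members were tested, limma called 28 members and 12 protein genes lower with either pseudocount, 25 nuclear genes lower with either (42.8% and 41.8% of all genes), and 4 (+ 1) or 3 (+ 0.1) higher. At 0.01, 5 members and 1 nuclear gene were lower and 4 nuclear genes higher. The share of all genes at that threshold was not computed. With at least 10 CPM in 3 libraries, 8 protein genes were lower and 5 nuclear genes higher (20.8% of all genes lower and 14% higher). DESeq2 and the fit without a filter each called 1 member higher, beside 16% and 6.18% of all genes. Left-out libraries aside, the lower calls of members otherwise ran from 7 to 10, beside 9.98% to 21% of all genes. No protein gene was called higher under any setting. The cause of these changes was not tested.

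Directions turned for genes that had not passed. With library size alone the values were -0.18 (mt-Rnr2), -0.71 (mt-Nd1), -0.15 (mt-Tq), -0.42 (mt-Ts1), -0.11 (Gm29216), -0.08 (Tfam), -0.07 (Tfb1m), -0.12 (Mterf1b), -0.05 (Mtif2) and -0.32 (Mtrf1), and with copies also added again -0.18, -0.71, -0.15 and -0.42 for the members. On TPM + 1 and TPM + 0.1 they were -0.08 for mt-Rnr2, -0.58 for mt-Nd1, -0.05 for mt-Tq, -0.41 for mt-Ts1 and -0.02 for Gm29216 with both, -0.10 and -0.11 for Mtif2, -0.19 and -0.21 for Mtrf1, and -0.0 for Mterf1b with + 1. mt-Nd1 was -0.07 with upper-quartile scaling and -0.25 with the 10 CPM filter. mt-Co1 was 0.04 with RLE scaling and DESeq2, 0.03 with limma-voom and the replicate block, 0.01 without a filter, 0.07 with copies and 0.14 with copies and the replicate block. The log2 ratio of shares turned to 0.17 for mt-Co2 with copies and 0.01 for mt-Atp8 on TPM.

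With single libraries left out, members called lower numbered 5 to 11 and higher 0 to 2, nuclear genes lower 1 to 6 and higher 6 to 21. In these fits 10.7% to 19.3% of all genes were lower and 7.05% to 17.6% higher. The log2 ratio of EtP to control ranged from -0.35 to 0.13 for the rRNA share of the library, -0.36 to 0.16 for mt-Rnr2 over mt-Rnr1, and -0.07 to 0.32 for mt-Nd6 over the heavy-strand genes. For shares of the protein gene sum it ranged from -0.34 to 0.06 for mt-Co2, -0.09 to 0.07 for mt-Atp8 and -0.06 to 0.32 for mt-Nd6. mt-Nd1 ran from -0.15 to 0.54 (-0.10 without control replicate 2 among these), mt-Co1 from -0.19 to 0.48 (0.13 without EtP replicate 3), mt-Co3 from -0.50 to 0.23, and Gm28661 from -0.47 to 0.48 (0.0 without EtP replicate 3).

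Replicate numbers are shared by the groups, and same-numbered libraries deviated together with correlations of 0.184, 0.005 and 0.363. Control replicates 1 and 3 correlated best with their own number. Control replicate 2 was near 0 with every EtP library (0.01, 0.005 and -0.014). These correlations cannot decide whether the libraries are paired, and the labels do not tell it. With a replicate block 10 members were lower and 1 higher (mt-Rnr1), and 10 and 1 with copies added. In both fits 21% of all genes were lower and 16% higher. The paired ratio of rRNA to protein genes was 1.22 (log2). No paired share of mt-Nd4l was computed because EtP replicate 3 is at 0. tRNAs, with at most 142 counts, are the members whose precision depth limits most.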
